A study of Mus musculus with 26 samples.

Results

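The forkhead (Fox) and Sox transcription factor genes were followed in mouse embryonic fibroblasts (MEFs). Members were all GENCODE M21 protein-coding genes whose symbol is Fox plus a letter and a number, or Sox plus a number, which gave 63 of 21951 genes: 44 Fox genes and 19 Sox genes. Fox proteins bind DNA through a winged-helix domain and Sox proteins through an HMG box that bends the DNA. Both families specify cell types during development, and most members are silent in any one differentiated cell. Genes of this kind are well known targets of Polycomb repressive complex 2, whose enzyme EZH2 places the repressive mark H3K27me3 on CpG-rich promoters. ATRX is a chromatin remodeler that also binds RNA.

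MEFs of 3 kinds were compared, with 2 samples per genotype and assay: unmodified cells (WT), ATRXΔRBR cells, which are a CRISPR clone whose endogenous ATRX lacks the RNA binding region (RBR), and cells with shRNA knockdown of ATRX (ATRX KD). All were cultured MEFs in serum medium, and both modified lines went through puromycin selection. CUT&RUN, in which an antibody directs cleavage of the DNA around a chromatin protein, gave 16 peak lists: ATRX in WT and ATRXΔRBR, and EZH2 and H3K27me3 in all 3 genotypes. RNA-Seq of polyA RNA gave 6 libraries with 9051693 to 21723647 estimated counts each. The comparisons ask whether ATRX occupancy, Polycomb marks and RNA at these genes differ when the RBR is deleted or ATRX is targeted by shRNA.

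Several facts of the series bear on the results below. Atrx RNA was not lower in the libraries labelled ATRX KD, at 331 and 512 TPM against 233 and 141 TPM in WT (log2 fold change on counts -0.15 ± 0.21 SE, edgeR adjusted p = 0.604), so these libraries are called by their label. In ATRXΔRBR it was 175 and 124 TPM (-0.63 ± 0.22, edgeR adjusted p = 0.140), and a count over the whole gene does not check a deletion of one region. The WT and ATRXΔRBR libraries name 1 sequencing run and those labelled ATRX KD do not, so run and genotype cannot be told apart there. The EZH2 and H3K27me3 lists labelled ATRX KD stood apart: their highest -log10 q was 170 to 179 against 17.2 to 36.8 in the other lists of these targets, and the H3K27me3 lists covered 5.60 and 6.37 Mb against 103 to 147 Mb. The 10 fibroblast markers summed to 9518 and 7202 TPM in WT. In ATRXΔRBR they summed to 11534 and 11487 TPM, and the libraries labelled ATRX KD had 10993 and 11556 TPM. Thy1 was at 0 in all 6 libraries, and the collagen Col3a1 was at 28.1 and 32.2 TPM in WT but at 0.36 and 0.75 TPM in the libraries labelled ATRX KD. Of the 8 fibroblast markers tested, 0 were higher and 1 lower in ATRXΔRBR, and 2 were higher and 2 lower in the libraries labelled ATRX KD. Summed markers of neurons were at 17.6 and 29.15 TPM in WT, 26.65 and 20.4 TPM in ATRXΔRBR and 50.7 and 48.2 TPM in the libraries labelled ATRX KD. Those of glia and neural crest were at 4.71 and 5.4, 11.6 and 9.34, and 8.57 and 7.61 TPM in that order. Summed markers of blood ranged from 31.8 to 48.1 TPM. The part of these cell types in the results was not tested. Summed markers of endothelium, epithelium and skeletal muscle stayed at or below 5.55 TPM in every library.

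Promoter sequences of 9 members are given first: 7 whose peaks are described below, and Foxi1 and Foxr1 as members without a peak. They are the 250 bases before the RefSeq start on GRCm38.p6, 5′ to 3′ on the gene's strand, with every CG dinucleotide in capitals. CG reads the same on both strands. The RefSeq start differs from the GENCODE start used for peaks by 411 bp at Sox2, 267 bp at Foxr1 and 145 bp at Sox11. At the other members shown the distance is at most 59 bp. Of the 63 members, 41 had an entry in the RefSeq promoter table. Over all 32851 promoters of this length in that table the median was 6 CG, and 92.1% held at least 1.

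Sox2 and Sox11 carried EZH2 and H3K27me3 in WT and had lower RNA in both modified genotypes. The Sox2 stretch (chr3:34649745-34649994, plus strand) held 27 CG and that of Sox11 (chr12:27342719-27342968, minus strand) held 17.
Sox2: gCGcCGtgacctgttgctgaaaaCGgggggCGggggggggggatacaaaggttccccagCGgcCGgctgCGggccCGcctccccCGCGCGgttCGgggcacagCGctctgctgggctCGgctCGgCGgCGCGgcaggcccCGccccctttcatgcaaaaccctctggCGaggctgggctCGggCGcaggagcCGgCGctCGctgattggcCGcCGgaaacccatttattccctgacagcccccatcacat
Sox11: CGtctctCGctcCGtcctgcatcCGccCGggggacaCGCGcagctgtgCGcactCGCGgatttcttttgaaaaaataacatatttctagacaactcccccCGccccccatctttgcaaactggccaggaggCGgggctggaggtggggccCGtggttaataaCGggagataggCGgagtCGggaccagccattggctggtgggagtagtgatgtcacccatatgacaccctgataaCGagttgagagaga

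Foxa2, Foxe3 and Sox21 had H3K27me3 at the TSS in both WT lists and in neither ATRXΔRBR list. Foxa2 (chr2:148046970-148047219, minus strand) and Foxe3 (chr4:114926068-114926317, minus strand) each held 6 CG, at the median of all promoters, and Sox21 (chr14:118237031-118237280, minus strand) held 17.
Foxa2: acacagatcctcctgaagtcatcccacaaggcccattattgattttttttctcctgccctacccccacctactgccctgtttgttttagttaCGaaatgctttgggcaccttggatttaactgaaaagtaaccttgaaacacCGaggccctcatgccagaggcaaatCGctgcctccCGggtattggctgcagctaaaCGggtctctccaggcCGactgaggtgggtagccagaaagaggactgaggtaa
Foxe3: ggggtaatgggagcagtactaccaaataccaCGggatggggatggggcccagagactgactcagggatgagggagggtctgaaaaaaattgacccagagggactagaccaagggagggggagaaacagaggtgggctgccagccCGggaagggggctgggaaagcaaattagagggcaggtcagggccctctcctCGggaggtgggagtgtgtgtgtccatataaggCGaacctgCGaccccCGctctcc
Sox21: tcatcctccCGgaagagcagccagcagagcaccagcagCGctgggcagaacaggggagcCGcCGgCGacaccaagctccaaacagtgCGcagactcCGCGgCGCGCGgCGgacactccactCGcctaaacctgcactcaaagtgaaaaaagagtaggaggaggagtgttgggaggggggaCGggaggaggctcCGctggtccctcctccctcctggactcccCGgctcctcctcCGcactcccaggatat

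Foxc1 had an ATRX peak in both WT lists and Foxo3 in both ATRXΔRBR lists, and both peaks overlapped the stretch shown. Foxc1 (chr13:31806396-31806645, plus strand) held 29 CG and Foxo3 (chr10:42276696-42276945, minus strand) held 31, counts reached by 6.78% and 5.19% of all promoters.
Foxc1: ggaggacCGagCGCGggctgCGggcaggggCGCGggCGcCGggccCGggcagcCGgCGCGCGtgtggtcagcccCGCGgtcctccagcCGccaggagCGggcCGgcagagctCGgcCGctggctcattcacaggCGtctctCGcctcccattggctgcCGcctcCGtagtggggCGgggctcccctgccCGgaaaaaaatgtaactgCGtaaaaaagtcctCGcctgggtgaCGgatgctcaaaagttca
Foxo3: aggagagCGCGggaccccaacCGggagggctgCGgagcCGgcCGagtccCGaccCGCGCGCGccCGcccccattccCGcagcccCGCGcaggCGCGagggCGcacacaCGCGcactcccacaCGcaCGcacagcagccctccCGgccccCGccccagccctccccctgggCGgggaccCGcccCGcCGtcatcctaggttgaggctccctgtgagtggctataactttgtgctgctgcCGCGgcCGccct

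Foxi1 and Foxr1 had no peak of any target within 2 kb in any list. Foxi1 (chr11:34208090-34208339, minus strand) held 4 CG and Foxr1 (chr9:44440869-44441118, minus strand) held 15.
Foxi1: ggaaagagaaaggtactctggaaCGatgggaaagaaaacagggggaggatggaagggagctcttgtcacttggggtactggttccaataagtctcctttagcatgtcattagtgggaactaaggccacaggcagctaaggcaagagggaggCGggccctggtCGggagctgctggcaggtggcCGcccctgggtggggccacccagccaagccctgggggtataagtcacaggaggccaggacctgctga
Foxr1: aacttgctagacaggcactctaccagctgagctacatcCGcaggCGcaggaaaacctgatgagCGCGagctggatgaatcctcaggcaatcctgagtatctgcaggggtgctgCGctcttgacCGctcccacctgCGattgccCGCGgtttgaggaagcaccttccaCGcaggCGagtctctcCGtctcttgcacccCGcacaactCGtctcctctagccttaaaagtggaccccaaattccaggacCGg

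In WT MEFs, 25 of the 63 members were at 1 TPM or more in both libraries and 20 were at 0 in both. TPM is scaled for transcript length and library size, so levels can be compared between genes. Foxd1, a factor of stromal mesenchyme, had the highest level, at 125.8 and 85.0 TPM. The cell cycle factor Foxm1 followed at 56.4 and 79.8 TPM and the SoxC gene Sox4 at 78.5 and 34.1 TPM. Next came Foxk2 (49.3 and 61.2 TPM), Foxc1 (55.1 and 48.7 TPM) and Foxp1 (60.3 and 33.7 TPM). Only Foxd1 among these 6 was above its next neighbour in both libraries. The stem cell and neural factor Sox2 was at 43.9 and 37.1 TPM, and Foxp4 at 37.1 and 26.6 TPM. Foxo3, a mediator of stress and insulin signalling, was at 23.5 and 24.0 TPM, below both values of each gene above it. Foxj3 (14.4 and 23.4 TPM), Foxo4 (15.2 and 20.7 TPM) and the cartilage factor Sox9 (21.96 and 11.8 TPM) completed the 12 members of highest level, and their ranges overlapped.

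The role groups differed in how many members were detected. All 7 broadly expressed Fox genes of the K, J2, J3, N2, N3 and M1 classes were at 1 TPM or more in all 6 libraries. Among the FoxA genes, which open chromatin in endoderm, the highest was Foxa3 at 0.28 and 0.08 TPM in WT. The SoxF genes, which act in endothelium, reached no more than 0.11 TPM in WT (Sox18), and of the SoxD genes Sox5 was highest at 0.44 and 1.07 TPM. Sox15 was the only SoxG and SoxH gene with a value above 0 (0.17 and 0 TPM in WT).

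**Figure D1:**
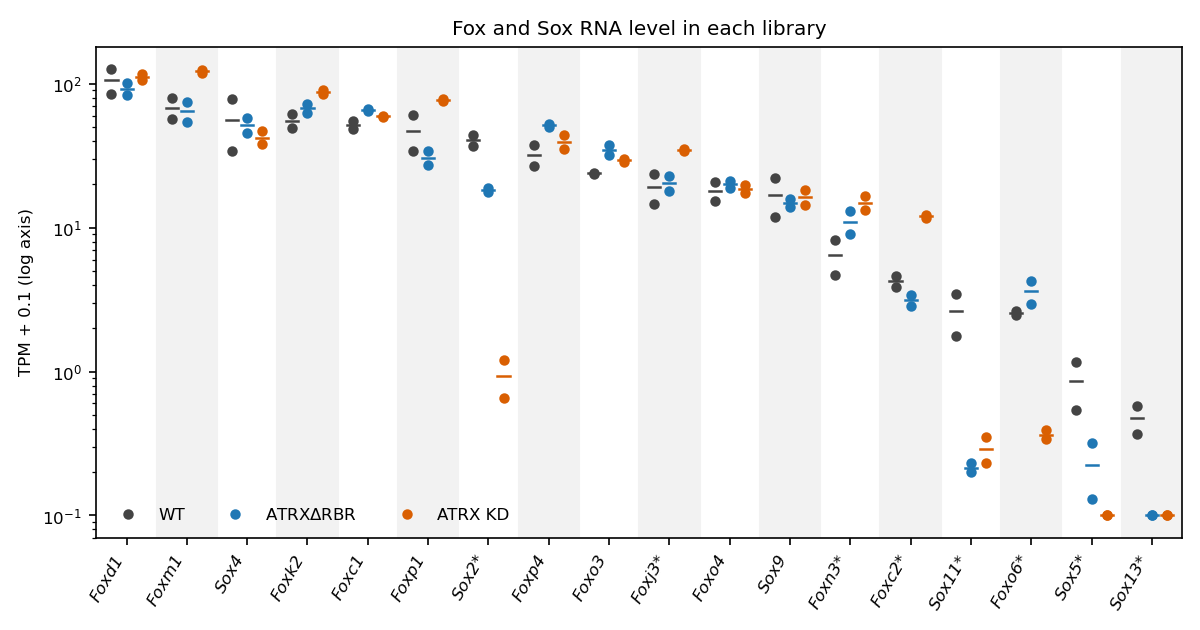
Level in TPM plus 0.1 (log axis) of the 12 members highest in WT and of other members called in either RNA comparison (called members carry an asterisk). Each point is 1 library and each short line the mean of 2. Sox2 sits near 40 TPM in WT, near 18 in ATRXΔRBR and near 1 in the libraries labelled ATRX KD.

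Polycomb marks were frequent at the members. A peak was assigned to a gene if it overlapped the 2 kb on either side of the outermost TSS. In WT, EZH2 was at 46 of 63 members in each list (73.0%), against 50.6% and 46.8% of 21938 protein-coding genes. H3K27me3 was at 30 and 32 members (47.6% and 50.8%), against 15.6% and 16.4% of protein-coding genes. These shares describe the lists and carry no test, since genes are not replicates.

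The members split into classes with different RNA levels in WT. Both marks in both lists were found at 26 members, whose median was 0.05 TPM, and 12 of them were at 0. Of the 26, 5 were at 1 TPM or more on average, among them Sox2 (40.5 TPM), Foxc2, Foxf1 and Sox11. EZH2 in both lists without H3K27me3 in either was found at 13 members with a median of 16.9 TPM, among them Foxd1, Sox4, Foxc1, Foxp4, Foxo3 and Sox9. H3K27me3 without EZH2 was found at Foxr2 and Sox17, both at 0 TPM. Neither mark was found at 10 members, from Foxk2 (55.2 TPM) to 4 members at 0, and the 2 lists disagreed at the other 12. These classes rest on the 2 kb limit, and no other window was tried for them. The nearest EZH2 peak in the WT lists lay 2285 and 2229 bp from the TSS of Foxj3, a member with neither mark. It lay 2095 and 1962 bp from that of Foxl1 and 2006 and 1885 bp from that of Foxq1, where the lists disagreed. Over all protein-coding genes the median was 0.105 TPM with both marks and 35.4 TPM with EZH2 alone, the same order as among the members.

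**Figure D2:**
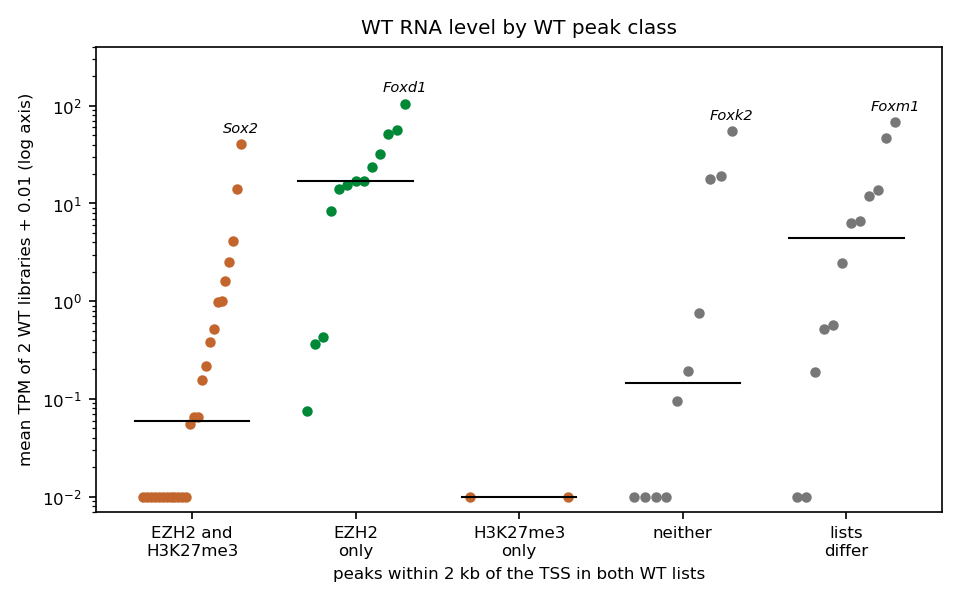
Mean WT level of each member in TPM plus 0.01 (log axis), grouped by the peaks within 2 kb of its TSS in WT; bars are medians and the highest member of a class above 20 TPM is named. Members with EZH2 alone have a median of 16.9 TPM, those with both marks 0.05 TPM, with Sox2 at 40.5 TPM as the highest of the latter.

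The CpG content around the TSS overlapped between the classes. In the 500 bases on either side, the ratio of observed to expected CpG had a median of 0.769 over the 63 members and 0.552 over 21923 protein-coding genes. It was 0.745 for the 26 members with both marks, 0.835 for the 13 with EZH2 alone and 0.675 for the 10 with neither, and the ranges of these classes overlapped. Among protein-coding genes with neither mark it was 0.221.

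ATRX peaks at the members were few and mostly differed between replicates. The WT lists held them at 5 and 4 members and the ATRXΔRBR lists at 7 and 3, a difference of 0.5 members (exact two-sided permutation test, p = 1, with 0.333 the smallest p that 2 against 2 lists allow). Foxc1, a mesenchymal factor, was the only member with ATRX in both WT lists, as a peak of 202 bp and one of 176 bp over its TSS. It also had an ATRX peak of 472 bp in replicate 1 of ATRXΔRBR and none in replicate 2. Foxo3 was the only member with ATRX in both ATRXΔRBR lists, and it also had a peak in replicate 1 of WT. No member lost ATRX (2 of 2 WT lists against 0 of 2) and none gained it, with a background of 0.424% lost and 0.337% gained over protein-coding genes. By this rule only 1 member could be lost, and 11.3% of the 820 protein-coding genes with ATRX in both WT lists lost it. At such rates a count of 0 says little about the members. With peaks of q at or below 0.01 alone, 1 member counted as lost. These counts turned on single lists: 3 members counted as lost without WT replicate 2 and 1 without WT replicate 1 or ATRXΔRBR replicate 1, while 5 counted as gained without ATRXΔRBR replicate 2 and 1 without WT replicate 1. All 20 ATRX peaks at members were 176 to 662 bp wide, and none was shared between neighbouring members.

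EZH2 peaks at the members were fewer in ATRXΔRBR, at 40 and 36 members against 46 and 46 in WT. The difference was -8 (exact permutation test, p = 0.333, the smallest possible). The totals had an SD of 2.83 in ATRXΔRBR and 0 in WT, but an SD of totals does not show which members differed. Only 41 members had EZH2 in both WT lists and 30 in both ATRXΔRBR lists, so replicate lists disagreed on single members. Over protein-coding genes EZH2 was at 50.6% and 46.8% in WT and at 49.2% and 35.04% in ATRXΔRBR, where the list of replicate 2 held 11408 peaks against 18351 to 22418 in the other 3, and the part of that difference in the members' counts was not tested. EZH2 was lost in both lists at 2 members (background 1.19%), among them Foxp2, known from brain development, and none gained it (background 0%). Of the 41 members with EZH2 in both WT lists, these were 4.88%, against 2.66% of such protein-coding genes. Leaving out 1 list at a time gave 4 (WT replicate 2) to 8 (ATRXΔRBR replicate 2) members lost, and a 5 kb window gave 1. At Sox2 and Sox11, by contrast, EZH2 covered the TSS in all 4 lists. The Sox2 peak measured 10986 and 11589 bp in WT and 6186 and 8944 bp in ATRXΔRBR, and that of Sox11 measured 6065 and 5914 bp against 3675 and 5193 bp, so that the widths did not overlap for either gene. Such narrowing was not particular to genes with lower RNA. It was also found at other members, among them Foxf1 (7313 and 12625 bp against 6210 and 7153 bp), whose RNA was not called. At Foxc2 the widths overlapped.

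H3K27me3 was lost at 10 members in ATRXΔRBR and gained at none. The lists held it at 21 and 21 members against 30 and 32 in WT, a difference of -10 (SD 1.41 in WT and 0 in ATRXΔRBR, exact permutation p = 0.333, the smallest possible). The background was 4.3% lost and 3.63% gained over protein-coding genes. Among genes marked in both WT lists the share was 33.3% of 30 members and 29.2% of 3225 protein-coding genes, so the loss itself was near the background. Among genes marked in neither WT list, 0 of 31 members and 4.39% of 18137 protein-coding genes gained it. These 31 members are too few to tell 0 from that share. The number of protein-coding genes with H3K27me3 was 3419 and 3607 in WT and 3552 and 3215 in ATRXΔRBR, ranges that overlapped. The members started from a higher share marked in WT (47.6% and 50.8%, against 15.6% and 16.4%), so the net changes are not compared.

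The 10 members included Foxa2 (endoderm), Foxd2, Foxd3 (neural crest), Foxe1 (thyroid), Foxe3 (lens), Foxp2, Sox7 and Sox17 (endothelium and endoderm) and Sox21 (neural). All 4 marked members on chromosome 4, namely Foxd2, Foxd3, Foxe1 and Foxe3, were among them, where 33.5% of marked protein-coding genes lost the mark. Both marked members on chromosome 14, Sox7 and Sox21, were also lost, against 34.9% of marked protein-coding genes there. None was lost of 3 marked members on chromosome 8, 3 on chromosome 9, 2 on chromosome 7 and 2 on chromosome 19. Of marked protein-coding genes there 21.2%, 24.7%, 31.2% and 11.5% lost the mark, in that order. These chromosomes were picked because all or none of their marked members were lost. So few members on each cannot show a difference between chromosomes. The ratio of observed to expected CpG was 0.753 (median) at the 10 members and 0.702 at the 20 that kept the mark, with overlapping ranges.

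Over the 10 members, the median share of the 10 kb on either side of the TSS that H3K27me3 covered was 57.6% and 56.3% in the WT lists and 10.6% and 5.09% in the ATRXΔRBR lists. The members ranged from 0% to 70.4% covered in ATRXΔRBR, and Foxa2 had the highest share. There, WT peaks of 42476 and 45321 bp spanned the TSS and covered 100% of that region in both lists. In ATRXΔRBR 70.4% and 68.2% of it was still covered, but the nearest peak began 2365 and 2903 bp from the TSS. At Sox21 the covered share went from 74.2% and 74.6% to 30.2% and 29.0%, with the nearest peak 3554 and 3672 bp away. Foxd3 went from 83.7% and 100% to 7.0% and 8.2%, Foxe1 from 42.6% and 33.6% to 1.5% and 0%, and Foxe3 from 22.4% and 25.6% to 1.8% and 0%. At Foxp2 no peak lay within 1 Mb in either list. For 8 of the 10 members a peak lay within 5 kb in at least 1 ATRXΔRBR list, and for 4 in both, and Sox7 missed the 2 kb limit by 2 bp in replicate 1. The count therefore depended on how a peak at the TSS was defined: it was 3 lost and 1 gained with a 5 kb window, and 4 lost and 2 gained when the midpoint of the peak had to lie within 2 kb.

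**Figure D3:**
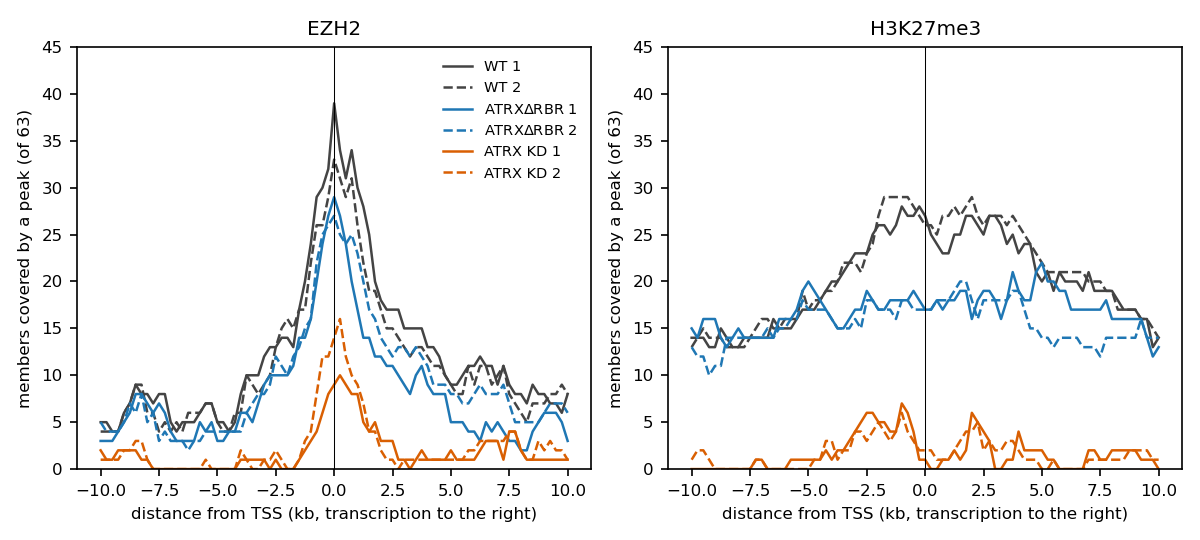
Number of the 63 members covered by an EZH2 peak (left) or an H3K27me3 peak (right) at each distance from the TSS, in kb, with transcription to the right; each line is 1 list, solid for replicate 1 and dashed for replicate 2. At the TSS, H3K27me3 covered 27 and 26 members in WT, the ATRXΔRBR lists had 17 each and those labelled ATRX KD had 1 and 2, while at -10 kb WT and ATRXΔRBR overlapped at 13 to 15 members.

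The 20 members that kept H3K27me3 in ATRXΔRBR included both Sox genes with lower RNA. At Sox2 the peak within 2 kb narrowed from 29362 and 29817 bp to 12037 and 7988 bp, and that in replicate 2 of ATRXΔRBR no longer reached the TSS. Counting all peaks, H3K27me3 covered 73.4% and 60.1% of the 10 kb on either side in ATRXΔRBR. In WT it covered 99.3% and 95.7%. At Sox11 the H3K27me3 peak measured 9688 and 10649 bp in WT and 8248 and 5541 bp in ATRXΔRBR, covering the TSS in each list. Among other members that kept the mark, the peak over the TSS was narrower in both ATRXΔRBR lists than in WT at several, Foxa1 and Foxf1 among them. At Foxa1 it measured 11306 and 10858 bp in WT and 3606 and 2908 bp in ATRXΔRBR. At Foxc2 and Sox8 the peak over the TSS was wider. The genes named are examples and do not give the share of each direction. Medians over all members with a peak rest on different members, 30 and 32 in WT and 21 in each ATRXΔRBR list. They therefore do not show whether peaks of the same members widened. The median width of an H3K27me3 peak at the TSS was 9608.5 and 10858 bp in WT and 13678.5 and 13501 bp in ATRXΔRBR. Over the whole lists it was 1213 and 1267 bp against 1838 and 1902 bp, so the peaks of these lists were wider in general.

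In the lists labelled ATRX KD the members held fewer peaks of both kinds. EZH2 was at 23 and 28 members (46 in each WT list, difference -20.5, exact permutation p = 0.333, the smallest possible), with 13 lost and 0 gained against a background of 18.3% lost and 0.141% gained. Of members with EZH2 in both WT lists 31.7% lost it, against 40.9% of such protein-coding genes. The expressed members among the 13 included Foxc1, Sox4, Foxp4, Foxf2 and Foxo1, followed at a mean under 1 TPM by Foxd3, Foxh1, Foxj1 and Foxp2 and by 3 members at 0 TPM in every library. None of these 5 was called in an RNA comparison below.

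H3K27me3 was at 15 and 13 members in the lists labelled ATRX KD (difference from WT -17, exact permutation p = 0.333, the smallest possible), with 14 lost and 0 gained against a background of 8.64% lost and 0.328% gained. Of the 30 marked members 46.7% lost it, against 58.8% of marked protein-coding genes. Foxc2, Foxd2, Sox6, Sox8, Foxp2, Foxa1 and Sox7 were among the lost members with RNA above 0 in any library. The 11 that kept it in both lists included Foxf1, Sox13, Sox18 and also Foxe3 and Sox21, which had lost it in ATRXΔRBR. The peaks that remained had median widths of 1005 and 1186 bp, and 1 and 2 members were covered at the TSS itself, so the window mattered here too. The number lost was 21 with a 1 kb window, 21 with peaks of q at or below 0.01 and 4 by peak midpoint. These lists covered far fewer bases over the whole genome, as given above, and the part of that difference in the counts was not tested.

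**Figure D4:**
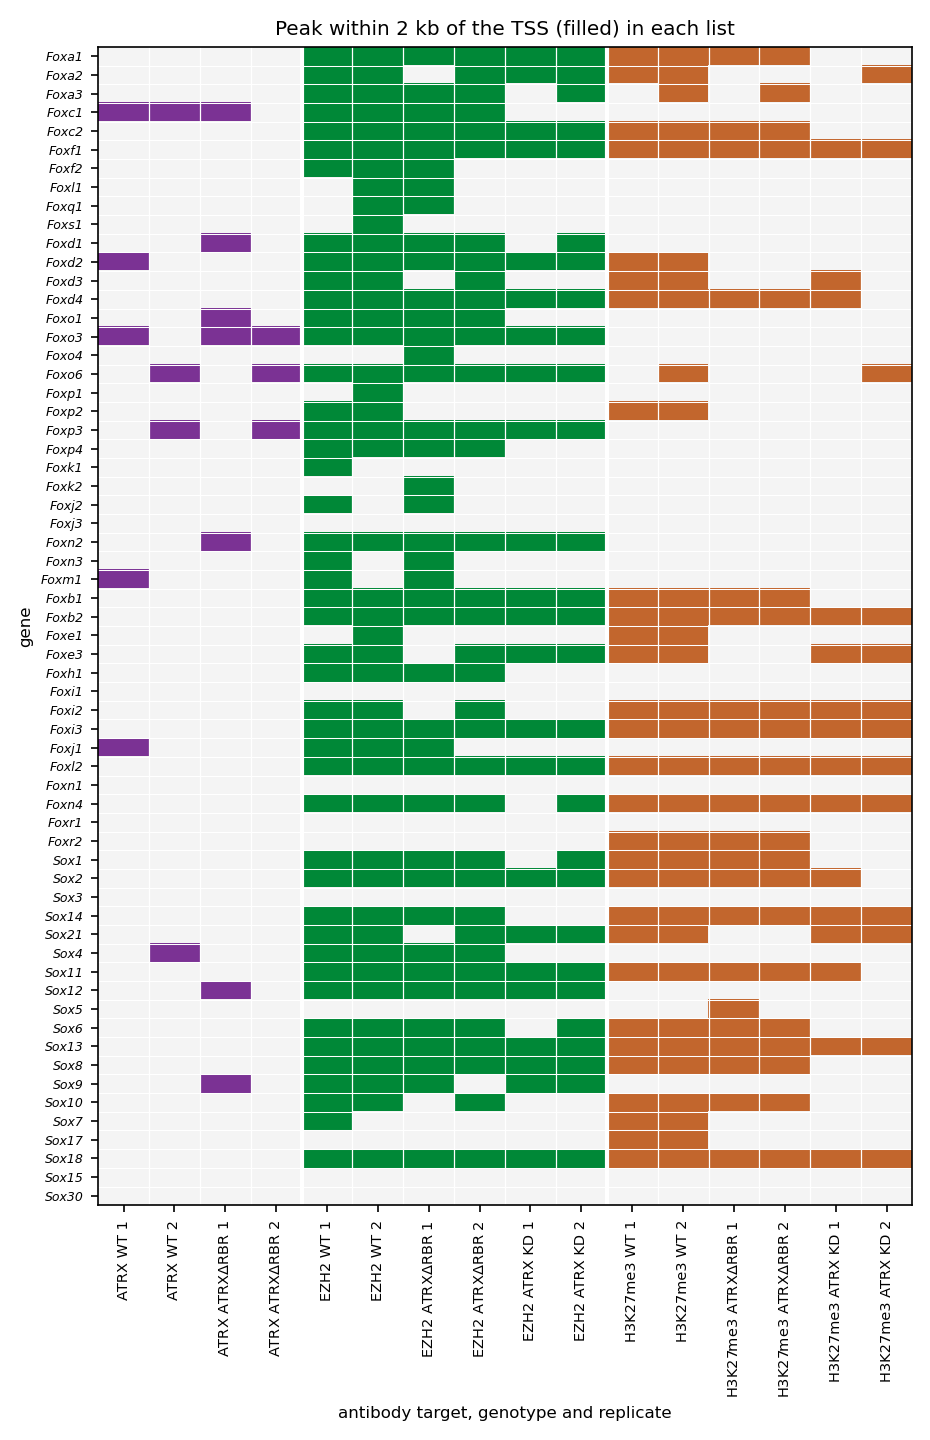
Presence of a peak within 2 kb of the TSS (filled) for 62 of the members, ordered by role group, in the 16 lists; purple is ATRX, green EZH2 and orange H3K27me3. Of the H3K27me3 columns the WT lists fill 29 and 31 rows, the ATRXΔRBR lists 21 and 21, and those labelled ATRX KD 15 and 13.

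Members close to each other in the genome did not always share their state within the 2 kb window. On chromosome 8, Foxf1 lies 31785 bp from Foxc2, and Foxl1, which acts in gut mesenchyme, 11769 bp from Foxc2. Foxf1 and Foxc2 had H3K27me3 within 2 kb in both lists of WT and ATRXΔRBR, and Foxl1 had it in none. Foxl1 missed that limit narrowly in all but 1 of these lists. Its nearest H3K27me3 peak lay 6463 and 2217 bp from the TSS in WT and 2242 and 2181 bp in ATRXΔRBR. Between Foxc2 and Foxl1, 45.1% and 46.1% of the bases were covered by H3K27me3 in WT and 81.0% and 60.5% in ATRXΔRBR. On chromosome 13, Foxf2, Foxc1 and Foxq1 lay within 180817 bp of a neighbour, and none of them had H3K27me3 within 2 kb in any list. In ATRXΔRBR, but not in WT, H3K27me3 covered 14.7% and 16.7% of the interval between Foxc1 and Foxf2. Foxd2 and Foxe3, 17140 bp apart on chromosome 4, both lost the mark in ATRXΔRBR, and no peak covered both genes of any pair.

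RNA of 2 members was lower in ATRXΔRBR than in WT and of none higher. Of 16287 genes tested 6.88% passed an adjusted p of 0.05 (2.79% higher and 4.08% lower), against 2 of the 36 members tested, a share near that background (edgeR quasi-likelihood test, Benjamini-Hochberg over all genes). The other 27 members had at most 10 counts over the 4 libraries. At an unadjusted p under 0.05 there were 3 members higher and 7 lower of 36, where 20.6% of all genes passed in either direction, and DESeq2 called 0 higher and 2 lower. The median log2 fold change of the members was -0.03 and that of all genes -0.02.

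Sox11, a SoxC factor of neural and mesenchymal progenitors (chr12:27334264-27342574 in mm10, minus strand), had 201 and 82 counts in WT and 5 and 6 in ATRXΔRBR. All ATRXΔRBR values were below all WT values, with a log2 fold change of -4.51 ± 0.53 SE (edgeR adjusted p = 0.00234). In TPM it went from 3.38 and 1.68 to 0.13 and 0.10. Sox2 (chr3:34650405-34652461, plus strand) had 637 and 442 counts in WT and 170 and 254 in ATRXΔRBR, again without overlap, with a log2 fold change of -1.23 ± 0.20 SE (edgeR adjusted p = 0.0102). Sox2 lies inside the noncoding gene Sox2ot on the same strand, so their reads can be shared. Both calls held under every alternative in which the gene passed the filter. The median log2 fold change of all genes was 0.01 on chromosome 12 and -0.02 on chromosome 3.

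The 3 SoxD genes were low, and their values pointed the same way without passing the test. Sox13 had 7 and 7 counts in WT and 0 and 0 in ATRXΔRBR (edgeR adjusted p = 0.0551), Sox6 had 7 and 5 against 0 and 0 (0.0706), and Sox5 had 13 and 25 against 1 and 8 (0.162). With no filter on low counts these 3 and Foxp1 were also called lower, which made 6 members. Of the 10 members that lost H3K27me3, 3 had enough counts for the test and none of these passed in either direction, among them Foxd2 (log2 fold change 0.93 ± 0.54 SE) and Foxd3 (-0.09 ± 0.54 SE). The other 7 did not exceed 0.38 TPM in any library. Foxo3 (0.48 ± 0.17 SE, edgeR adjusted p = 0.151), Foxp4 (0.54 ± 0.21 SE, 0.205) and Foxc1 (0.27 ± 0.18 SE, 0.477) did not pass the test.

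RNA of 9 members differed in the libraries labelled ATRX KD, 3 higher and 6 lower, out of 37 tested. Over all 16748 genes tested 33.1% passed (15.2% higher and 17.8% lower), so the members' share of called genes was not above the background. The median log2 fold change was -0.10 for the members and -0.02 for all genes, and on the log2(TPM + 1) scale the median of all genes was 0.17. The counts turned on the WT libraries: without WT replicate 1 there were 12 members higher and 5 lower, and without WT replicate 2 there were 8 higher and 11 lower. These libraries share their WT controls with the comparison above, so the values are set side by side only.

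In the libraries labelled ATRX KD, Sox2 had 9 and 11 counts against 637 and 442 in WT, a log2 fold change of -6.00 ± 0.31 SE (edgeR adjusted p = 9.05e-05). Sox11 had 4 and 20 counts against 201 and 82 (-3.88 ± 0.52 SE, edgeR adjusted p = 0.00213). Thus Sox2 and Sox11 were lower in both comparisons, and neither group overlapped WT. Foxo6, a FoxO gene of brain, had 47 and 36 counts in WT and 3 and 6 in the libraries labelled ATRX KD (-3.45 ± 0.45 SE, edgeR adjusted p = 0.00196). The SoxD genes Sox5, at least 15.9-fold lower when 3 counts are set as the floor over the group (edgeR adjusted p = 0.00684), and Sox13, at least 5.77-fold lower (0.0190), had 0 counts in both. Sox13 rested on 7 and 7 WT counts and lost its call without replicate 2 of the libraries labelled ATRX KD (edgeR adjusted p = 0.0713).

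The 3 higher members were Fox genes. Foxc2, a factor of mesenchyme and lymphatic vessels, had 87 and 60 counts in WT and 126 and 321 in the libraries labelled ATRX KD, or 4.50 and 3.78 against 11.5 and 12.2 TPM, without overlap (log2 fold change 1.29 ± 0.21 SE, edgeR adjusted p = 0.00469). It overlaps the gene model Gm20388 on the same strand. It was 1 of the 14 members that lost H3K27me3 in these lists, of which 6 were tested for RNA: 1 was higher, 1 lower and 4 were not called. The 8 not tested did not exceed 0.38 TPM in any library. Foxn3, a checkpoint suppressor (1.02 ± 0.26 SE, edgeR adjusted p = 0.0238), and Foxj3 (0.64 ± 0.18 SE, 0.0341) were the others. Foxj3 lost its call without either library labelled ATRX KD (edgeR adjusted p = 0.0918 and 0.0805). With limma on log2(TPM + 1), the adjusted p was 0.0507 for Foxn3, 0.0568 for Foxj3, 0.0540 for Sox5 and 0.0952 for Sox13, so these 4 calls were lost there. Neither Foxn3 nor Foxj3 had H3K27me3 in any list.

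**Figure D5:**
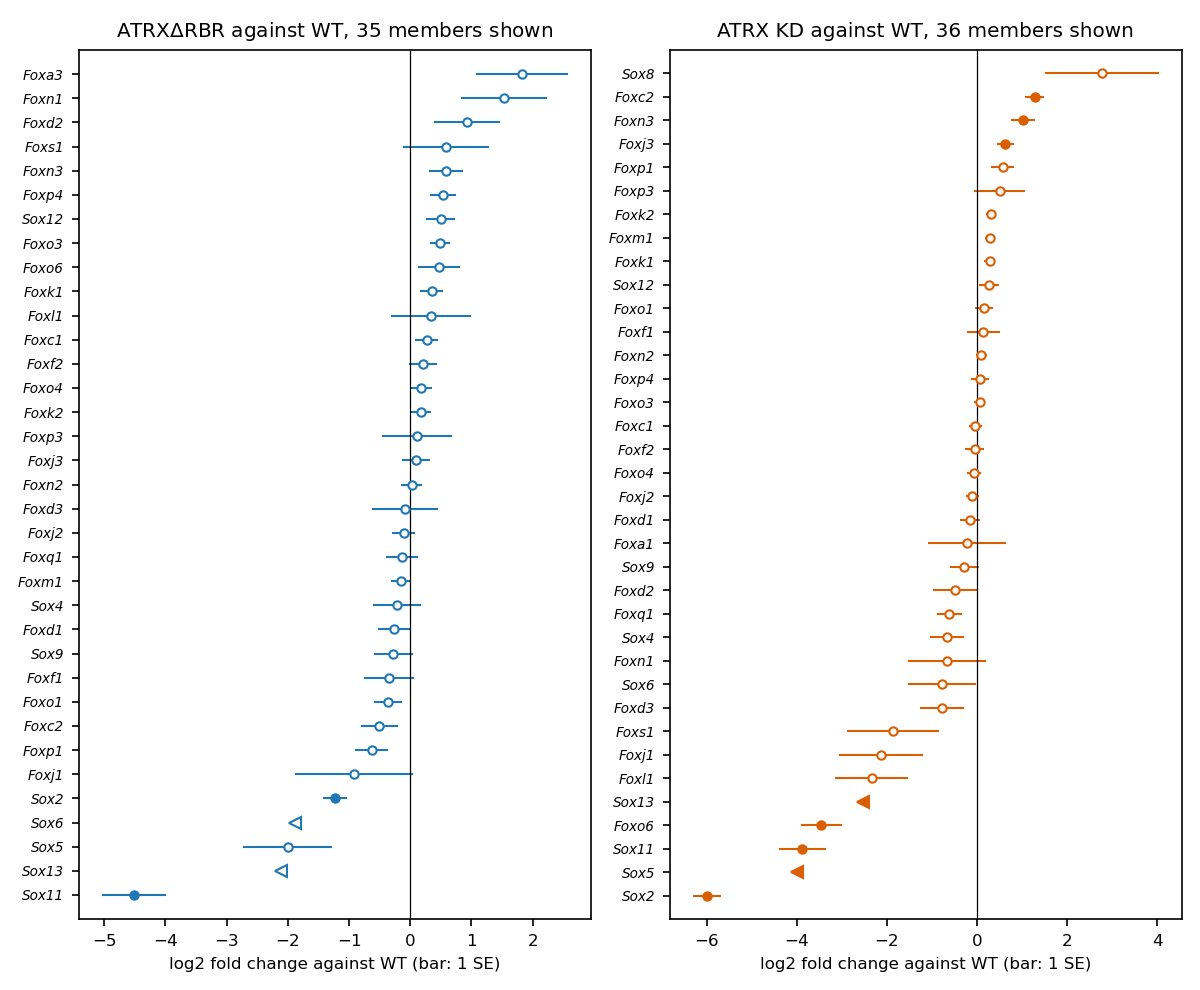
Log2 fold change against WT of members tested in ATRXΔRBR (left, 35 shown) and in the libraries labelled ATRX KD (right, 36 shown), with bars of 1 SE; filled symbols passed an adjusted p of 0.05, and triangles show the bound for members at 0 in both libraries. Sox11 and Sox2 are the filled symbols on the left, and 3 higher and 5 lower members are filled on the right.

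Genes known to act downstream of FoxM1, of the FoxO group and of Sox9 were described from fixed lists, beside backgrounds of 2.79% of all genes higher and 4.08% lower in ATRXΔRBR and of 15.2% higher and 17.8% lower in the libraries labelled ATRX KD. Of 14 FoxM1 target genes of mitosis, none was called in ATRXΔRBR (median log2 fold change -0.09), and in the libraries labelled ATRX KD 8 were higher and 3 lower (median 0.38). Among the 8 were the topoisomerase Top2a (0.80 ± 0.12 SE, edgeR adjusted p = 0.00362) and the centromere protein Cenpf (1.26 ± 0.12 SE, 0.000587). The 3 lower in these libraries were Cenpa (-0.78 ± 0.12 SE, edgeR adjusted p = 0.00344), Cks1b (-0.95 ± 0.21 SE, 0.0135) and Ccnb1 (-0.49 ± 0.15 SE, 0.0389). Foxm1 itself had 56.4 and 79.8 TPM in WT and 125.3 and 118.8 TPM there, but on counts its log2 fold change was 0.30 ± 0.11 SE (edgeR adjusted p = 0.0824). Of 17 FoxO targets tested, 2 were higher and 1 lower in ATRXΔRBR, and 4 were higher and 7 lower in the libraries labelled ATRX KD. The cell cycle inhibitor Cdkn1a, one of these, had log2 fold changes of 0.99 ± 0.21 SE and -0.73 ± 0.17 SE (edgeR adjusted p = 0.0313 and 0.0157). Of 6 Sox9 cartilage targets tested, Col2a1 was higher in ATRXΔRBR (3.41 ± 0.24 SE, edgeR adjusted p = 0.000367) and Col11a2 and Acan were lower, and all 3 were lower in the libraries labelled ATRX KD. Sox9 was not called in either comparison (-0.28 ± 0.32 SE and -0.29 ± 0.32 SE). The summed level of the 12 cartilage genes was low, between 3.91 and 15.0 TPM in the 6 libraries.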

How the data were processed

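The authors mapped CUT&RUN reads to mm10 with Bowtie2 and called broad peaks for each library separately with MACS2 (broad cutoff 0.1); the deposited lists give each peak's fold enrichment and its -log10 q-value. RNA-Seq reads were mapped with STAR, and the deposited RSEM tables hold estimated counts and TPM per gene. The lists give no read depth per library. The IgG libraries were left out.

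Estimated counts were rounded and tested over all genes with more than 10 counts in the 4 libraries compared, by edgeR 4.0.16 (TMM, quasi-likelihood test, R 4.3.3) with Benjamini-Hochberg adjustment at 0.05. DESeq2 1.42.0 and limma 3.58.1 on log2(TPM + 1) and log2(TPM + 0.1) were alternatives. A peak was at a gene if it overlapped 2 kb on either side of the outermost GENCODE M21 start by at least 1 bp. Lost means present in 2 of 2 WT lists and 0 of 2 others, gained the reverse. Windows of 1 and 5 kb, peak midpoints, q at or below 0.01, all transcript starts and leaving out each sample were tried. Scripts were tested on simulated data.

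The members and gene lists were chosen with earlier results of these data known. Members were named if called, if lost (at most the 12 of highest mean TPM in a comparison), if among the 12 of highest WT TPM, if they held ATRX in both lists of a genotype, if within 200 kb of another member, or if highest in WT of their role group; Foxi1, Foxr1 and Foxr2 were chosen after their values were seen. The 2 samples of a genotype are biological replicates per the study's methods, and the ATRXΔRBR samples come from 1 clone, so the error covers that clone. Fewer cells expressing a gene and less RNA per cell cannot be told apart. The counts include a member that is not reported here and is left out of the plots that name genes.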

Additional observations from a re-analysis of the deposited data

How the results depend on the processing

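With counts of at least 10 in every library, 1 member was lower in ATRXΔRBR and 0 in the libraries labelled ATRX KD, since members near 0 in a genotype were no longer tested. With no filter 6 were lower in ATRXΔRBR. With the replicate number as a block, 0 were higher and 3 lower in ATRXΔRBR and 4 higher and 8 lower in the libraries labelled ATRX KD; the numbers pair no shared culture that the labels name, and deviations of same-numbered libraries correlated at -0.53 and -0.06. A crossed pairing in ATRXΔRBR, chosen after seeing the data, gave 6 higher and 8 lower. Leaving out 1 library gave 0 to 1 higher and 2 to 3 lower in ATRXΔRBR, and 2 to 12 higher and 5 to 11 lower in the libraries labelled ATRX KD. Foxd1 and Sox9, not called in the latter, were called higher without WT replicate 1 (log2 fold change 0.25 and 0.35) and lower without WT replicate 2 (-0.46 and -0.69).

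Over all genes, ATRXΔRBR gave 455 higher and 665 lower in the main test, 180 and 307 with limma on log2(TPM + 1), 172 and 346 on log2(TPM + 0.1), 848 and 1131 with no filter, 315 and 282 with at least 10 counts in every library, 752 and 984 with all 6 libraries in the fit and 2647 and 2900 with the crossed pairing. The libraries labelled ATRX KD gave 2553 and 2989 in the main test, 2650 and 1469 on log2(TPM + 1), 2524 and 1428 on log2(TPM + 0.1), 1025 and 1472 with a log2 fold change of at least 1, and 3194 to 8953 in all when 1 library was left out.

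For ATRX at the members, leaving out 1 list moved the difference from WT between -1.5 and 2.5, the number lost between 0 and 3 and the number gained between 0 and 5; q at or below 0.01 gave 1 lost. For EZH2 in ATRXΔRBR the difference was -6 at that q, and without 1 list it was -10 to -6, with 4 to 8 lost and 0 to 2 gained; a 5 kb window gave 1 lost. In the lists labelled ATRX KD the EZH2 difference was -12.5 by midpoint, with 3 gained, -17.5 with 5 kb and -23 to -18 without 1 list, with 13 to 18 lost and 0 gained. For H3K27me3 in ATRXΔRBR the difference was -2.5 with 5 kb (3 lost, 1 gained), -5 by midpoint (4 lost, 2 gained) and -11 to -9 without 1 list (10 to 11 lost, 0 to 1 gained). In the lists labelled ATRX KD it was -23 with 1 kb, -12.5 with 5 kb, -6 by midpoint (4 lost, 2 gained), -23.5 at q of 0.01 and -18 to -16 without 1 list (14 to 18 lost, 0 gained). The cause of these shifts was not tested beyond what each setting does by construction. Of the 189 alternative values of these counts and differences, 145 stayed within 1.5 times the count or 1 SD of the difference. With 2 lists per genotype the exact permutation test cannot go below 0.333, and the peak lists do not show how deeply each library was sequenced.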

Other observations

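The libraries labelled ATRX KD were also set against ATRXΔRBR in a single fit of all 6 RNA-Seq libraries, chosen after seeing the data. Of 17956 genes 27.8% passed the edgeR test, and 9 of 40 members did. Foxc2 (log2 fold change 1.80 ± 0.24 SE), Foxp1 (1.22 ± 0.24 SE) and Foxm1 (0.46 ± 0.12 SE) were higher in the libraries labelled ATRX KD. Sox2 (-4.75 ± 0.30 SE), Foxo6 (-3.92 ± 0.45 SE), Foxl1 (-2.67 ± 0.85 SE) and Foxo3 (-0.41 ± 0.13 SE) were among those lower, as was Sox5, which had 0 counts there. Sox11 was not called (0.65 ± 0.68 SE, edgeR adjusted p = 0.522), at 5 and 6 counts in ATRXΔRBR and 4 and 20 in the libraries labelled ATRX KD.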
